A study of Rattus norvegicus with 6 samples.

Results

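Translation initiation factors were examined in H9c2 cells, a line from embryonic rat heart muscle, after simulated ischemia-reperfusion with a control adenovirus or an adenovirus labelled adPERK (PERK overexpression). The members are entries of the deposited gene table whose symbol begins with Eif1 to Eif6. This rule uses names and no measured value, but it was set with earlier results of these data known. The name pattern took 53 entries. The 4 eIF2 alpha kinases, Eif2s1 and Eif4ebp1 were left out, which leaves 47 of 26126 entries. Each group has 3 libraries, and both groups went through the same ischemia: an acidic buffer of pH 6.2 with 2-deoxyglucose and lactate, 30 min of flushing with a nitrogen and carbon dioxide mix, and closure of the chamber for a further 1.5 to 3.5 h. The labels do not give a reperfusion time for these libraries, and they do not say that replicates were separate cultures, so p-values measure a spread that may be technical. No library without ischemia or without virus is among the samples used here, so the comparison asks only how the PERK label relates to expression after the insult.

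Initiation factors bring the small ribosomal subunit, the initiator tRNA and the mRNA together. eIF2, loaded with GTP, carries the initiator tRNA, and eIF2B reloads eIF2 with GTP after each round. PERK phosphorylates the alpha subunit of eIF2, which turns eIF2 into an inhibitor of eIF2B and slows initiation on most mRNAs. The cap end of the mRNA is handled by eIF4E, the helicase eIF4A and the scaffold eIF4G, and eIF3 joins this assembly to the small subunit. These controls act largely on the proteins, whereas the libraries measure RNA.

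Eif2ak3, the gene of PERK, did not differ between groups by more than its spread. It stood at 26.5, 26.9 and 24.0 CPM (a TMM-scaled share of all counts in the library) in replicates 1 to 3 of the control group and 26.5, 26.5 and 26.0 CPM in those of the adPERK group, and the groups overlapped (log2 fold change 0.03, SE 0.06, edgeR adjusted p = 0.887). Whether the counting would see the viral transgene was not tested, so directions here rest on the labels. Totals ran from 77923398 to 119087414 counts, and control replicate 3 had the most entries above 0 (19287, against 15377 to 16685 in the others). Among markers, the muscle regulator Myog was at 486 ± 10.2 CPM with the control virus and 400 ± 9.25 CPM with adPERK (SD, n = 3). It was the 1 called (edgeR adjusted p = 0.0137) of 7 tested muscle markers. Of the others, Myod1 (log2 fold change -0.105) and Des (-0.07) lay below 0. Acta1 (0.23), Myh3 (0.11), Tnnt2 (0.03) and Actn2 (0.78) lay above 0. The heart genes Myh6 and Nppa were at 0 in at least 5 libraries.

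None of the tested initiation factors passed an edgeR adjusted p under 0.05. In simulated data the same fit called 6 of 50 entries changed 1.2-fold, so changes of that size can be missed. Of the 47 members 45 were tested, with 0 called higher and 0 called lower. DESeq2 and limma voom each called 1, Eif4a1. Over all 14488 tested entries 61 were called, which is 0.421%. At an unadjusted p under 0.05 there were 4 members, all higher (Eif4a1, Eif3i, Eif4e and Eif1a), or 8.89% of the tested members against 11.2% of all tested entries. Groups did not overlap for 7 members, 15.6% of those tested, against 18.2% of all entries. Both shares lie near those of all tested entries. The untested members were Eif2s3y, a Y-linked gene for eIF2 gamma, and Eif4e1b, a germ-cell relative of eIF4E. Both had 0 counts in every library. With a floor of 18 counts (3 steps of the 6 counts near which low counts gather), that allows up to 0.151 CPM in the deepest library and up to 0.231 CPM in the shallowest.

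The estimates were small and narrow. The log2 fold changes of the 45 ran from -0.33 (Eif4e3) to 0.18 (Eif3i), with 30 above 0 and 15 below. That is 66.7% above 0, where all tested entries had 48.7%. Their median was 0.036, where the median of all tested entries was -0.0045. It was 0.0008 over the 11393 entries with a mean at least as high as the lowest member's. That cut is the mean of Eif4e3 (1.64 CPM), so these entries are not matched to the members in level. The 34 tested genes of the 4 lists described last had 64.7% above 0 and a median of 0.033. The median of the members was 0.021 without control replicate 3 and 0.020 without adPERK replicate 1, more than 1.5 times below 0.036. For 36 of 45 members the whole 95% interval of the fold change lay inside 1.2-fold in either direction, and for 44 inside 1.5-fold. These intervals are for each gene singly. Eif4e3 was the member whose interval ran past 1.5-fold. The shares of all tested entries whose interval lay inside these limits were 38% and 70.4%. Of the 45 tested members 44, all but Eif4e3, had at least 1000 counts in every library. Of 30 factors refitted with 1 library left out in turn, 6 (Eif1a, Eif2b2, Eif3c, Eif3i, Eif4a1 and Eif4e) stayed within 1.5 times their value in all 6 fits, 15 kept their sign but moved further in at least 1 fit, and 9 turned sign in at least 1.

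**Figure D1:**
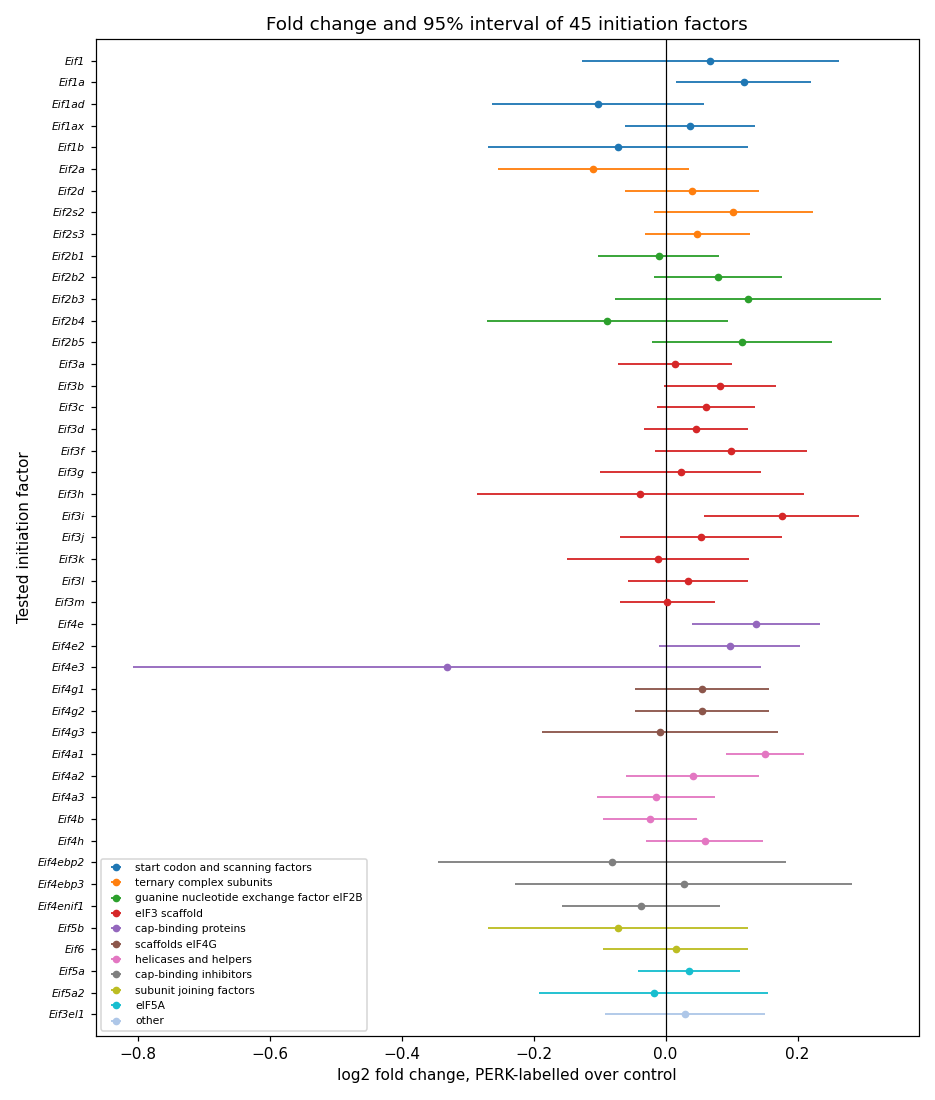
Log2 fold change of each tested initiation factor (point) with its 95% interval (line) from the edgeR fit over all 14488 tested entries, coloured by role. The intervals of Eif1a, Eif3i, Eif4e and Eif4a1 lie above 0, and Eif4e3 has the widest interval.

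**Figure D2:**
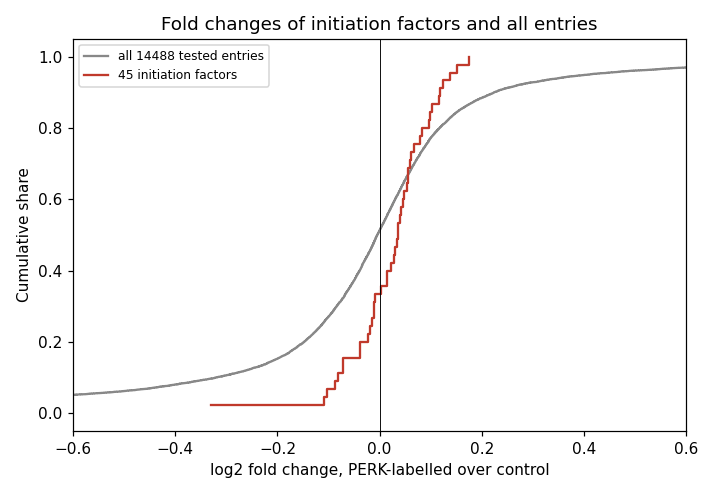
Cumulative share of log2 fold changes for the 45 tested initiation factors (red) and all 14488 tested entries (grey), with the far ends of the axis left out. The members span -0.33 to 0.18 and 33.3% of them lie below 0.

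Summed over the family, the level was 7027.5, 7015.7 and 6922.5 CPM in the 3 control libraries and 7302.8, 7187.7 and 7258.6 CPM in the 3 adPERK libraries. The summed levels did not overlap between groups. Without Eif4a1 the sums were 6479.2, 6471.3 and 6379.9 CPM with the control virus and 6692.3, 6581.1 and 6660.2 CPM with adPERK, and these did not overlap either. As a share of all counts without TMM scaling, the family took 0.703 ± 0.0121% of counts with the control virus and 0.720 ± 0.00431% with adPERK (SD, n = 3), and here control replicate 2 (0.716%) and adPERK replicate 1 (0.716%) met. With mitochondrial entries left out of the total, the shares did not overlap between groups. No test was made of the summed levels or of the shares. Summed markers of some cell types did not overlap between groups either. The 4 fibroblast markers in the table of 5 listed (Col1a1, Col3a1, Thy1 and Pdgfra) summed to 25250 to 26611 CPM with the control virus and 26684 to 27762 CPM with adPERK, with 0 called. Nearly all of that sum is Col1a1 and Col3a1. Of the 4, Col3a1 did not overlap between groups (log2 fold change 0.06), while Col1a1 (0.11), Thy1 (0.02) and Pdgfra (-0.74) each overlapped. The 5 epithelial markers summed to 48.7 to 52.8 and 53.2 to 54.2 CPM, with 0 called and Epcam at 0 in 5 libraries. That sum is mostly Krt8, which did not overlap (0.07), while Krt7 did (0.06). The 4 endothelial markers in the table summed to 1.30 to 1.99 and 0.638 to 0.919 CPM. That sum is mostly Tek (log2 fold change -0.82, edgeR adjusted p = 0.225), with Cdh5 and Kdr at 0 in 5 libraries each. For the 4 leukocyte markers in the table (8.46 to 12.1 and 9.98 to 11.0 CPM) and the 10 muscle markers (928 to 1019 and 899 to 947 CPM) the sums overlapped. In bulk RNA, fewer cells of a type and less RNA per cell cannot be told apart. The part of these markers in the family's sum was not tested.

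The cap-binding complex held the member with the smallest p. Eif4a1 encodes the main cytosolic eIF4A, the helicase that opens the leader of the mRNA. Its level was 548, 545 and 543 CPM in the 3 control libraries and 611, 607 and 599 CPM in the 3 adPERK libraries. All adPERK libraries lay above all controls, and the gap was several times the spread within either group. The fold change was 1.11 (log2 fold change 0.15, SE 0.03, 95% interval 0.09 to 0.21; unadjusted p = 3.5e-04), and the edgeR adjusted p of 0.0603 missed the threshold.

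The call for Eif4a1 depended on the test, while its size did not. The log2 fold change lay between 0.146 and 0.160 in all 14 alternatives. It passed with the stricter low-count filter (adjusted p = 0.044), limma voom (0.0235), the robust edgeR fit (0.0195) and DESeq2 (1.45e-07), which called 1.18%, 0.759%, 0.911% and 4.02% of the entries they tested. It did not pass in the other 10, where the adjusted p reached 0.28. The authors' deposited table gives Eif4a1 a log2 fold change of 0.155 with adjusted p = 0.009, and it calls 2.27% of its entries with an adjusted p. Eif4a1 was the 1 initiation factor under 0.05 in the authors' deposited table. Several small nucleolar RNA genes and an Eif4a1-like gene overlap Eif4a1 in RefSeq, and the labels do not say how their reads were handled.

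The paralogs of Eif4a1 had estimates closer to 0. Eif4a2, a close relative of eIF4A1, was at 182, 168 and 177 CPM with the control virus and 188, 179 and 176 CPM with adPERK (log2 fold change 0.04, edgeR adjusted p = 0.788). Eif4a3, the helicase of the exon junction complex, was at 91.7, 90.0 and 91.3 CPM and at 91.0, 89.1 and 90.1 CPM. Both sets overlapped. The difference between Eif4a1 and its paralogs was not tested. Reads that paralogs share could have been split by the counting. The helicase helpers eIF4B and eIF4H had log2 fold changes of -0.02 for Eif4b and 0.06 for Eif4h.

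**Figure D3:**
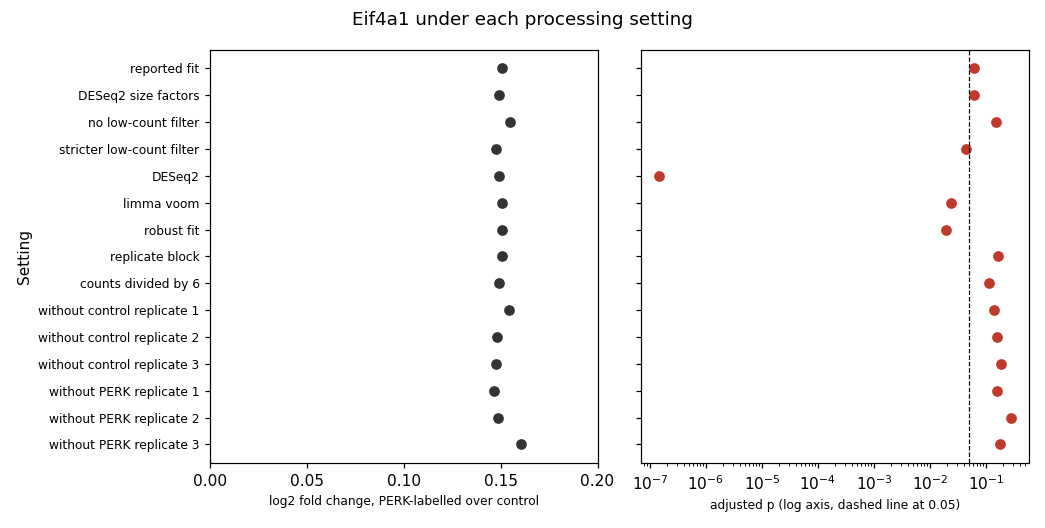
Log2 fold change of Eif4a1 (left) and its adjusted p on a log axis (right) in the reported edgeR fit and 14 alternatives, with a dashed line at 0.05. The fold change stays between 0.146 and 0.160 while the adjusted p runs from 1.45e-07 to 0.28.

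Eif4e, the protein that grips the cap itself, was at 79.2, 80.5 and 79.2 CPM with the control virus and 88.5, 89.4 and 84.7 CPM with adPERK. The groups did not overlap, and Eif4e had a log2 fold change of 0.14 (SE 0.04; adjusted p = 0.265 with edgeR). No alternative called it. Eif4e2, a cap-binding relative used in repression of translation, stood at 103, 94.9 and 101 CPM against 104, 109 and 106 CPM, also without overlap (log2 fold change 0.10, or 0.06 without control replicate 2; edgeR adjusted p = 0.482). Eif4e3, the least counted tested member, was at 2.16, 1.49 and 1.85 CPM against 1.61, 1.49 and 1.27 CPM. Its groups overlapped, and it rested on 114 to 239 counts per library (log2 fold change -0.33, SE 0.21, edgeR adjusted p = 0.596). Without control replicate 1, its highest library, the log2 fold change of Eif4e3 was -0.20. At this depth the 95% interval of Eif4e3, -0.81 to 0.15 on the log2 scale, covers both no change and a sizeable fall.

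The scaffolds that hold eIF4E and eIF4A did not pass the test. Eif4g1 had a log2 fold change of 0.06 (SE 0.04). Eif4g2, which encodes DAP5, a scaffold that lacks the eIF4E site, was at 930, 951 and 900 CPM with the control virus and 949, 922 and 1019 CPM with adPERK, and adPERK replicate 3 alone stood above every control. Eif4g3 had -0.0091 (SE 0.08). Inhibitors of the cap complex did not pass either. Eif4ebp2 and Eif4ebp3, 4E-BP proteins that mask eIF4E, had log2 fold changes of -0.08 (SE 0.11) and 0.03 (SE 0.11), and Eif4enif1, the eIF4E transporter, -0.04 (SE 0.05). Eif4ebp1, the 4E-BP outside the family as defined here, was at 79.3 ± 4.66 CPM with the control virus and 89.0 ± 2.64 CPM with adPERK (SD, n = 3; log2 fold change 0.17, SE 0.05, edgeR adjusted p = 0.292). It is a known target of ATF4, the transcription factor made when eIF2 alpha is phosphorylated. Atf4 itself had a log2 fold change of 0.14 (SE 0.03, edgeR adjusted p = 0.19). Groups did not overlap for Eif4ebp1 or for Atf4, but neither gene passed the edgeR threshold. A link between them was not tested.

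**Figure D4:**
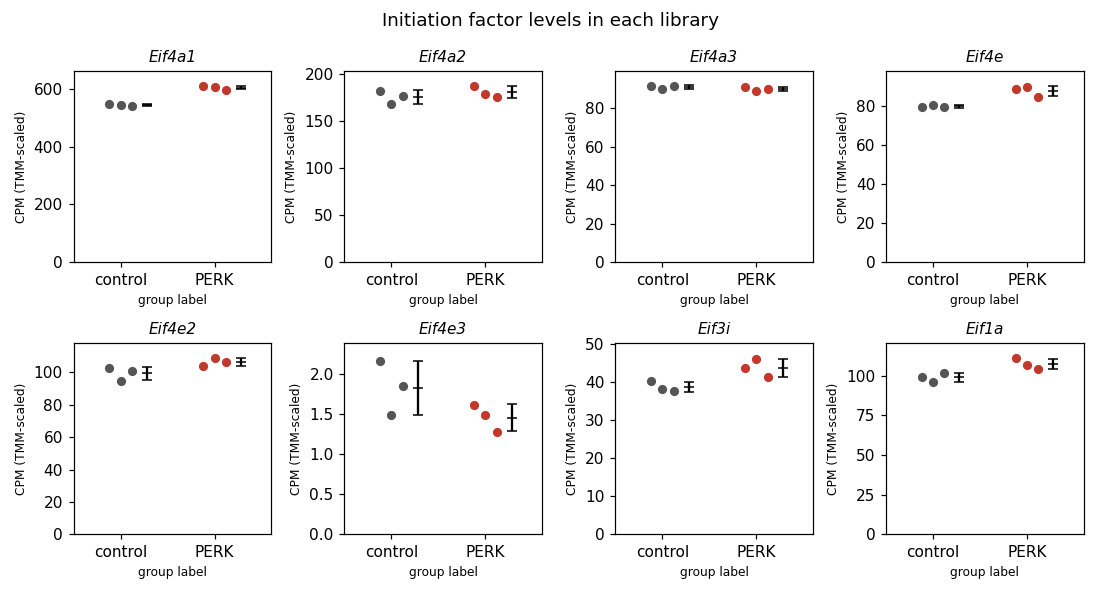
Level in CPM of TMM-scaled totals in each library (points, with replicates 1 to 3 from left to right) and mean ± SD (bar, n = 3) for 8 factors, with every axis from 0. The adPERK points of Eif4a1, Eif4e, Eif4e2, Eif3i and Eif1a lie above all control points of the same gene, and those of Eif4a2, Eif4a3 and Eif4e3 overlap them.

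Start sites of Eif4a1 and Eif4e are shown because these cap-complex genes had the smallest p within their roles. Both are RefSeq sequences on build GRCr8, 250 bases before to 50 after a start, at chr10:54888553-54888852 on the minus strand for Eif4a1 and chr2:229740503-229740802 on the plus strand for Eif4e. Letters in capitals mark an E-box (CACGTG, the site of MYC-type factors, which reads the same on both strands) or a CARE-type motif (TGATGNAA on either strand, a site type of ATF4 with C/EBP partners). An E-box and a CARE-type motif can share letters, but no such pair lies in the windows shown.
Eif4a1: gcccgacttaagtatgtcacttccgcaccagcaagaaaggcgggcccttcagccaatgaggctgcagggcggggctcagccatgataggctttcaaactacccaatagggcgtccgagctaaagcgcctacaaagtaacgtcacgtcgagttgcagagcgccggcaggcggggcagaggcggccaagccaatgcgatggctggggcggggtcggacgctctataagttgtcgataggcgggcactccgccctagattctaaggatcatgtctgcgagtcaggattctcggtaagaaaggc
Eif4e: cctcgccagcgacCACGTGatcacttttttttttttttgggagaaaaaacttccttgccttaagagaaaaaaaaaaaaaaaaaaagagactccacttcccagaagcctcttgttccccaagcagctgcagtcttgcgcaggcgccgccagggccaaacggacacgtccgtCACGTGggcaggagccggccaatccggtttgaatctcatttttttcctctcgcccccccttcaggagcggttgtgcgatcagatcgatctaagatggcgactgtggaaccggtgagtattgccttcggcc

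The Eif4e window held 2 E-boxes, which begin at its bases 14 and 171 counted from the 5′ end, and the Eif4a1 window held 0. Neither window held the CARE-type motif. RefSeq gave a window for 43 of the 47 members. Of these, 9 held an E-box (20.9%), namely Eif1b, Eif3a, Eif3b, Eif3f, Eif4e, Eif4g1, Eif4h, Eif5a and Eif5a2. The share over all 27457 genes with such windows was 7.08%. These include genes not tested here, and the share over tested entries alone was not computed. The CARE-type motif was in the windows of Eif2s2 and Eif3g, which is 4.7% of members against 4.16% of all genes. The E-box members had log2 fold changes from -0.07 (Eif1b) to 0.14 (Eif4e). A match in these letters is a description and not a shown binding site.

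The eIF2 and eIF2B genes, whose proteins stand directly behind PERK, did not pass the test. Eif2s2, the beta subunit, was at 250, 228 and 243 CPM with the control virus and 276, 250 and 248 CPM with adPERK, where control replicate 1 lay above adPERK replicates 2 and 3 (log2 fold change 0.10, SE 0.05, edgeR adjusted p = 0.51). The log2 fold change of Eif2s2 was 0.05 without adPERK replicate 1 and 0.06 without control replicate 2. Eif2s3, the gamma subunit that binds GTP, had 0.05 (SE 0.03). Eif2s1, the alpha subunit that PERK phosphorylates and which lies outside the family as defined here, was at 147 ± 3.92 and 149 ± 5.50 CPM (SD, n = 3; adjusted p = 0.934 with edgeR, log2 fold change 0.01). Eif2a and Eif2d, which bind tRNA on the small subunit without being eIF2 subunits, had -0.11 (SE 0.06) and 0.04 (SE 0.04).

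All 5 eIF2B subunits were tested and 0 were called. Eif2b2 was at 82.9, 80.2 and 78.4 CPM with the control virus and 84.0, 85.2 and 86.1 CPM with adPERK, without overlap (log2 fold change 0.08, SE 0.04, edgeR adjusted p = 0.526). Eif2b5, the catalytic epsilon subunit, was at 63.5, 66.9 and 58.1 CPM against 69.6, 66.1 and 68.8 CPM, where control replicate 2 lay above adPERK replicate 2 (log2 fold change 0.12, SE 0.06). The regulatory subunit genes Eif2b1 and Eif2b4 had log2 fold changes of -0.01 (SE 0.04) and -0.09 (SE 0.08). Eif2b3, a catalytic-side subunit, had 0.12 (SE 0.09), with control replicate 2 below all other libraries at 20.1 CPM. Without that library the log2 fold change of Eif2b3 was 0.04, and without adPERK replicate 2 it was 0.06. That of Eif2b5 was 0.06 without control replicate 3. The 5 estimates thus pointed both ways, 3 above 0 and 2 below.

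Of the 12 eIF3 subunit genes tested, 0 were called, 10 lay above 0 and 2 below. That is 83.3% above 0, where all tested entries had 48.7%. Their median log2 fold change was 0.04, with a median SE of 0.045, and no test was made of the signs. Eif3i, a WD-repeat subunit, was at 40.2, 38.0 and 37.6 CPM with the control virus and 43.6, 46.0 and 41.3 CPM with adPERK. The groups did not overlap (fold change 1.13, log2 fold change 0.18, SE 0.05, unadjusted p = 0.0087, edgeR adjusted p = 0.235). Eif3i overlaps Tmem234 in RefSeq, and whether the counting used strand is not stated in the labels. Eif3b, a core scaffold subunit, was at 166, 175 and 168 CPM against 179, 183 and 177 CPM, also without overlap (log2 fold change 0.08, edgeR adjusted p = 0.456). Eif3c had 0.06 (SE 0.03), and Eif3a, the largest core subunit, 0.01 (SE 0.04). Eif3h varied most within groups: 67.8, 54.1 and 67.0 CPM with the control virus and 60.5, 54.5 and 69.0 CPM with adPERK, where replicate 2 was the lowest of each group. Eif3m was steady, between 188 and 194 CPM in all 6 libraries. The entry Eif3el1, an eIF3e-like gene whose symbol RefSeq also lists as a synonym of Eif3e, had 0.03 (SE 0.05), and its reads cannot be assigned to 1 copy with certainty.

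Among the scanning and start codon factors, Eif1a was the member with an unadjusted p under 0.05. It encodes eIF1A, which helps the small subunit scan, and was at 99.4, 95.9 and 101 CPM with the control virus and 111, 107 and 104 CPM with adPERK. The groups did not overlap (log2 fold change 0.12, SE 0.04, edgeR adjusted p = 0.368). Its X-linked paralog Eif1ax had 0.04 (SE 0.04) with overlapping groups, and the reads of these paralogs may have been split by the counting. Eif1, the gatekeeper of start codon choice, was at 45.7, 44.5 and 38.3 CPM against 42.8, 42.1 and 49.8 CPM, so the extremes were control replicate 3 and adPERK replicate 3. Eif1b, its paralog, had -0.07 (SE 0.09), and Eif1ad, a protein with an eIF1A-like domain, -0.10 (SE 0.07).

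The late-acting factors had estimates on both sides of 0. Eif5b, the GTPase that joins the ribosomal subunits, was at 37.8, 47.3 and 38.4 CPM with the control virus and 40.4, 37.1 and 40.0 CPM with adPERK, where control replicate 2 stood above every other library. Without it the log2 fold change of Eif5b went from -0.07 to 0.04. Eif6, which keeps the subunits apart, had 0.02 (SE 0.05). Eif5a, the hypusine-bearing factor that helps peptide bond formation, had 0.04 (SE 0.03), and its paralog Eif5a2 -0.02 (SE 0.08), with control replicate 1 the highest at 29.5 CPM.

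**Figure D5:**
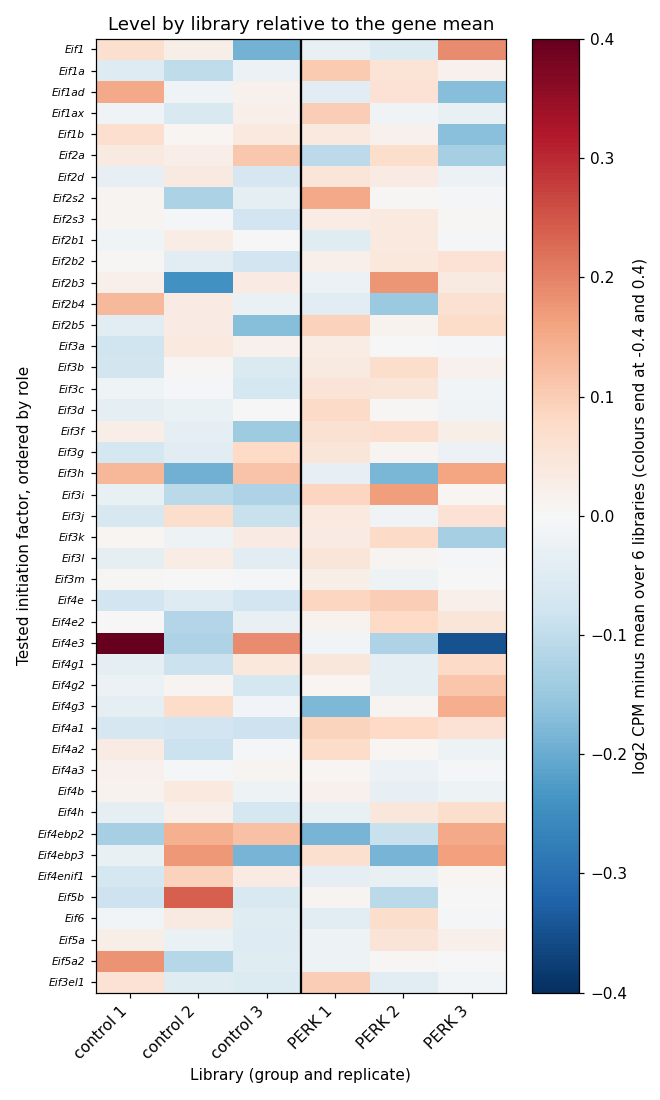
Level of each tested initiation factor in each library as log2 CPM minus its mean over 6 libraries, with members ordered by role and a line between the groups. Eif4a1 is below its mean in the 3 control libraries and above it in the 3 adPERK ones, while most rows mix both colours within a group.

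Genes that act around initiation were also without a call in the edgeR fit. The 4 lists (elongation, termination and recycling, poly(A) and helicase partners, and the mTORC1 arm) gave 34 tested genes, of which edgeR called 0. At an unadjusted p under 0.05 there were 4, all higher, or 11.8% of the 34 against 11.2% of all tested entries. Groups did not overlap for 12 of the 34 (35.3% against 18.2% of all entries), and 22 lay above 0 (64.7% against 48.7% of all entries). The elongation list also holds Eef2k, a kinase of eEF2 (log2 fold change 0.15), and Eef1a2, which had 0 to 24 counts a library. Of its 8 genes 0 were called, and the median log2 fold change over these 8 genes was 0.07. Among them Eef2, the translocase, was at 3064 ± 93.4 CPM with the control virus and 3258 ± 40.9 CPM with adPERK (SD, n = 3; log2 fold change 0.09; adjusted p = 0.341 with edgeR, called by DESeq2 only of the 14 alternatives), and Eef1e1, a factor of the tRNA synthetase complex, had 0.15 (SE 0.05). Termination and recycling factors had 0 of 6 called, all above 0, with a median of 0.08. Gspt2 had 0 counts, and Gspt1 and Larp4 are not analysed here. Poly(A) and helicase partners had 0 of 9 called and a median of -0.02. The helicases Ddx3x and Dhx29, which unwind leaders on the small subunit, were at 0.08 and 0.11, and Pdcd4, an inhibitor of eIF4A, at -0.17 (SE 0.08, edgeR adjusted p = 0.462). The mTORC1 arm, which frees eIF4E through the 4E-BP proteins, had 0 of 11 called and a median of 0.0095, with Mtor at -0.03 and Rps6kb1 at 0.0095.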

How the data were processed

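RNA of 6 libraries was compared, 3 per group as the labels give them. The authors' deposited gene table holds estimated counts as whole numbers, used as deposited. It also holds normalized signal (counts divided by 1 size factor a library, not used in tests) and the authors' log2 fold changes with their errors, a score, and p-values, raw and adjusted. Bowtie 0.12.2 and mouse build mm9 are named in the submitters' processing notes, though the entries are rat genes. No counting program is given in the sources used here. A table with 6 per-sample columns that match no label was not used. No entry that the name pattern took has the symbol Eif5 or Eif3e, so these genes are not analysed here.

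All entries were fitted with edgeR 4.0.16 in R 4.3.3 (TMM, filterByExpr with minimum count 10, quasi-likelihood test, Benjamini-Hochberg adjustment over 14488 entries, threshold 0.05), and members were read from that fit. Standard errors come from the fold change and F. The alternatives were 14 settings, with DESeq2 1.42.0 and limma 3.58.1 among them. The steps were tested on simulated data. The fit called 6 of 50 entries changed 1.2-fold, 35 of 50 changed 1.5-fold and 49 of 50 changed 2-fold. Of its 153 calls there, 13 were false. Low counts gather near 6 (569 to 1345 entries a library at 5 to 7 counts, 423 to 1185 at 2 to 4), so independent fragments may be fewer than counts, and intervals cover the error seen between libraries only. Depth was 77923398 to 119087414 counts a library.

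Members and lists were chosen with earlier results of these data known. Genes are named if they pass the test, have an unadjusted p under 0.05, or have the most counts or the smallest p in their role, and paralogs and eIF2B subunits are named beside them. Further members are given as examples. RefSeq (GRCr8) matched 47 of 47 members by symbol. It was used for names, overlaps and promoter windows. CPM was used across genes to pick the most counted member of a role, to set a cut on the mean level and to form sums. It was not read as a transcript level relative to other genes, since no transcript lengths were used.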

Additional observations from a re-analysis of the deposited data

How the results depend on the processing

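Across 14 alternatives, 30 named factors gave 420 values, of which 402 kept both sign and side of the threshold, 4 gained a call (all Eif4a1) and 0 lost one. The 0 called members became 1, Eif4a1, with DESeq2, limma voom, the robust fit and the stricter low-count filter, and stayed 0 in the other 10. The 0 called pathway genes became 1, Eef2, with DESeq2. The median log2 fold change of the family ran from 0.0202 to 0.0409 when 1 library was left out. The other 14 values turned sign, none of them called, each in a fit without 1 library. With 1 library left out, the log2 fold change ran from -0.0115 to 0.1164 for Eif1, -0.0038 to 0.0622 for Eif1ax, -0.0333 to 0.0119 for Eif2b1, -0.012 to 0.0651 for Eif3el1, -0.0542 to 0.1237 for Eif4ebp3, -0.0869 to 0.0736 for Eif4g3, -0.0788 to 0.0733 for Eif5a2, -0.1309 to 0.0375 for Eif5b and -0.0178 to 0.0422 for Eif6. Leaving the 37 mitochondrial entries out of the total raised the family's share from 0.703% to 0.846% in control and from 0.720% to 0.867% in adPERK libraries. The rise follows from the smaller total. By library these shares were 0.846%, 0.859% and 0.833% in control and 0.869%, 0.865% and 0.869% in adPERK libraries, without overlap.

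The replicate block also called 0 members, with 5 at an unadjusted p under 0.05 against 4 without it. Replicate numbers were not used as pairs: deviations of same-numbered libraries correlated at -0.177, 0.0387 and 0.0345 over tested entries, and no library correlated best with its own number. The sum without Eif4a1 was chosen after seeing the data.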
